A study of Mus musculus with 18 samples.

Results

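Returning wild-type Snf2h to mouse embryonic stem (ES) cells that lack it was examined by comparing 3 libraries of Snf2h knockout (ko) cells that carry a wild-type Snf2h add-back (replicates 1 to 3) with 3 libraries of the ko cells themselves (replicates 3 to 5). These 6 of the series' 18 RNA libraries were chosen because they were sequenced to a like depth, each under 20 M counts. All libraries came from ES cells of the 129S6/SvEvTac strain grown in serum with leukemia inhibitory factor. Polyadenylated RNA was sequenced, and values are read counts per gene. Of the other groups, 3 wild-type libraries (replicates 6 to 8) and 2 libraries of ko cells with a mutant Snf2h add-back (replicates 1 and 3; the growth protocol calls the line an ATPase mutant) had the same depth and served for reference, and ko and wild-type replicates 1 and 2 were used to choose genes independently. The genotype labels of both add-back lines name the ko as well as the added gene. No source used here gives the promoter that drives the add-back, the ko allele or the number of clones. Per the growth protocol, cells were kept on gelatin, but 2 lines, ko and mutant add-back, were thawed onto mouse embryonic fibroblast (MEF) feeders and kept there for 2 passages or more. That exception is not listed for the wild-type add-back. Biological replicates are stated for the study but are not tied to single libraries, so p-values measure the spread between these libraries, which may be partly technical.

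Snf2h is the product of Smarca5 and is the ATPase of most mammalian ISWI complexes, which use ATP to slide nucleosomes and to set the regular spacing between them. Regular spacing around CTCF sites and access of CTCF to its motif are known to depend on it. ES cells are held in a pluripotent state by factors such as Pou5f1, Sox2 and Nanog, and most lineage genes are silent or low in them.

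Totals were 15.3 to 16.4 M counts in the wild-type add-back and 16.9 to 18.5 M in ko, and 14488 of 24116 genes passed the filter on low counts. Replicates differed by more than counting noise, with a chi-square per gene of 1.83 to 1.88 between ko libraries and of 2.09 to 6.72 between add-back libraries, so none was a duplicate of another. The ES cell identity in the labels was checked on 26 naive and core pluripotency genes, whose summed level ranged from 9008 to 9151 CPM (counts per 1000000, on library sizes scaled by the trimmed mean of M-values, TMM) in the add-back, 9252 to 9473 in ko and 8887 to 8953 in wild type.

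Smarca5 (GRCm38 chromosome 8, 80699943 to 80739459) checked the labels. It was at 83.4, 83.8 and 90.0 CPM in the 3 add-back libraries against 10.1, 9.64 and 8.67 CPM in ko, with no overlap. The add-back was therefore 9.05-fold above ko (log2 change 3.18 ± 0.12 (SE), n = 3 against 3, adjusted p = 3.64e-12 by edgeR's quasi-likelihood test with Benjamini-Hochberg adjustment, which gives every adjusted p below unless another test is named). It remained below the 203 CPM of wild type (−1.24, adjusted p = 6.04e-08) and above the 48.1 and 68.3 CPM of the mutant add-back (0.56, adjusted p = 2.72e-04). Counts cannot tell endogenous from added transcripts. Smarca1, the other ISWI ATPase gene, rose from 19.7 ± 0.74 to 28.4 ± 2.08 CPM (SD, n = 3 each; log2 change 0.53 ± 0.07).

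A large share of the transcriptome differed between the wild-type add-back and ko, mostly by small amounts. These libraries cannot separate the return of Snf2h from feeder history or from other differences between the lines. At an adjusted p under 0.05, 4794 genes (33.1% of those tested) were higher in the add-back than in ko and 4614 (31.8%) were lower, 64.9% in all. The median called rise was 1.37-fold and the median called fall 1.49-fold. Changes of 2-fold or more were fewer, with 1067 rises and 1234 falls, and 371 rises and 322 falls reached 4-fold. Only 61 rises and 46 falls reached 16-fold. When each gene was tested against a change of 1.5-fold instead of against no change, 2709 genes were called. The 3 libraries of one group lay wholly above those of the other for 71.2% of the tested genes, 5228 of them higher and 5082 lower in the add-back.

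The size of the change depended on expression level. Among genes averaging over 100 CPM, 2.70% changed by at least 2-fold and the median absolute log2 change was 0.22. Between 1 and 10 CPM these values were 30.5% and 0.60, and below 1 CPM they were 46% and 0.94. Among genes over 100 CPM, 1131 were called higher and 573 lower, whereas between 1 and 10 CPM 1030 were higher and 1280 lower. Dividing by library size alone, without TMM scaling, changed the overall split from 4794 higher and 4614 lower to 4101 and 5274.

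**Figure D1:**
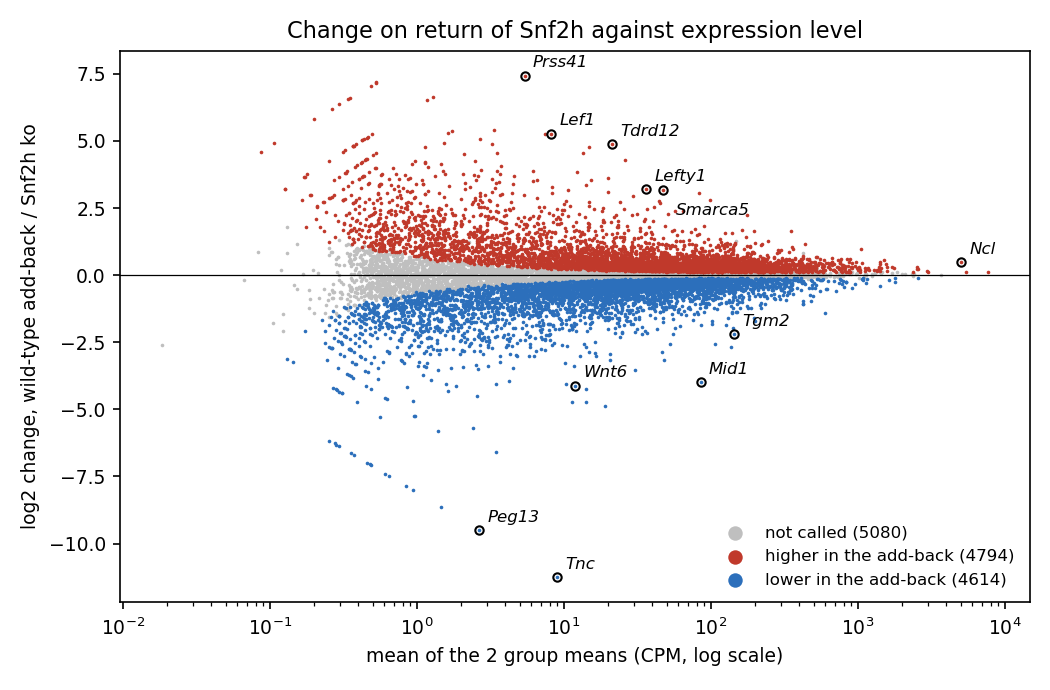
Log2 change between the wild-type add-back and ko for each tested gene (vertical) against the mean of the 2 group means in CPM (horizontal, log scale), with 4794 genes called higher in red, 4614 called lower in blue and the rest in grey. The spread narrows as expression rises, and Tnc and Peg13, with 0 counts in the add-back, lie at the bottom at fitted values that are not bounds.

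The largest rises were of genes almost silent in ko. Prss41, a serine protease gene (chromosome 17, 23836785 to 23844219), was at 12, 11.1 and 9.22 CPM in the add-back and at 0.0562, 0 and 0.116 CPM in ko, a log2 change of 7.43 ± 0.31 (adjusted p = 3.37e-13). Mtus2, which encodes a microtubule-associated protein, rose 42.3-fold from a mean of 0.149 to 6.55 CPM. Lef1, a transcription factor of the Wnt pathway, stood at 15.1, 15.0 and 17.8 CPM against 0.281, 0.579 and 0.347 CPM in ko, a 38.5-fold rise. Magohb, a paralog of an exon junction complex subunit, rose 38.4-fold. Fggy, a carbohydrate kinase gene, rose from 0.202 ± 0.140 to 6.30 ± 0.40 CPM.

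Tdrd12, a Tudor-domain gene of the piRNA pathway, was at 40.9, 41.5 and 41.5 CPM after add-back and at 1.40, 1.37 and 1.39 CPM in ko (log2 change 4.89 ± 0.11, adjusted p = 4.62e-17). Plac8 rose 27.7-fold to a mean of 28.9 CPM, the bicarbonate transporter gene Slc4a5 23.5-fold to 25.8 CPM, and Atxn1l, a relative of the ataxin-1 gene, 19.7-fold to 49.8 CPM. Enpp2, which encodes autotaxin, Rbm44, Gpat2, Vrtn and the testis cytochrome c gene Cyct rose between 14.2-fold and 17.0-fold. The remaining genes among the 20 largest rises were Nat8f4, Ubash3a, Miip, Nlrp4f, Prr23a3 and Platr14, between 11.5-fold and 13.6-fold. Each of the 20 had all add-back libraries above all ko libraries, as the choice required. Nat8f4 and Nlrp4f belong to families of near-identical genes among which reads can be misassigned.

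Promoter sequence was read beside these changes, since the choice of genes did not use it, and 4 promoters are shown to make the CG content of the risers visible. The 250 bases upstream of the RefSeq start (GRCm38.p6, first listed start per gene, gene strand, CG dinucleotides in capitals) are given for the 4 of the 20 largest rises that had the highest add-back CPM and a promoter in the RefSeq table. They are Atxn1l at chr8:109737781-109738030, Tdrd12 at chr7:35537716-35537965, Miip at chr4:147868720-147868969 and Plac8 at chr5:100572206-100572455, all on the minus strand.
Atxn1l: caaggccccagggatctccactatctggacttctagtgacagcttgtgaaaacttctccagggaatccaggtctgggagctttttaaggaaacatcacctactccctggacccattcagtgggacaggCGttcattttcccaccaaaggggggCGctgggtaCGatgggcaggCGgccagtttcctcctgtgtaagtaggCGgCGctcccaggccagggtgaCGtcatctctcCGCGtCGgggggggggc
Tdrd12: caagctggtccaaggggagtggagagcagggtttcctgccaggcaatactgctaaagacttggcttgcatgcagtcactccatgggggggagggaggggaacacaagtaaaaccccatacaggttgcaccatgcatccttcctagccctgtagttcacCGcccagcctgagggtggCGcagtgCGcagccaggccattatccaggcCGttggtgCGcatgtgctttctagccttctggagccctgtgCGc
Miip: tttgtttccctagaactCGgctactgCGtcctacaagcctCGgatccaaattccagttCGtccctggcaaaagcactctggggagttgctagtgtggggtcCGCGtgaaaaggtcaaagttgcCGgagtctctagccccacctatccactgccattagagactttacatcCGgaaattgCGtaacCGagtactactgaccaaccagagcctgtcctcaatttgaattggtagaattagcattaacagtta
Plac8: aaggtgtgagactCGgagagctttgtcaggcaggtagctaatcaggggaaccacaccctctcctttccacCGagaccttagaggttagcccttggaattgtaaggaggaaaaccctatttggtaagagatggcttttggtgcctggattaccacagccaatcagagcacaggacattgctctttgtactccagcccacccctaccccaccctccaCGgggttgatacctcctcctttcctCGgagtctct
These stretches hold 10, 6, 10 and 4 CG dinucleotides. Over the full window of 300 bases (250 before to 50 after the start), the same genes have 17, 11, 10 and 5. That window was available for 11369 tested genes. Its median was 20 CG for all genes, 8 for the 286 genes that rose 4-fold or more and 15 for the 235 that fell as far. The genes that changed 4-fold were also lower in expression, with median levels of 1.17 (higher) and 1.28 CPM (lower) against 25.8 CPM for all. Low expression went along with fewer CG, since the median was 16 for all 2656 genes of 1 to 10 CPM against 20 for all genes. Among these 2656, it was 11 for the 368 that rose 2-fold or more and 16 for the 427 that fell as far. These are descriptions, and no test was made.

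**Figure D2:**
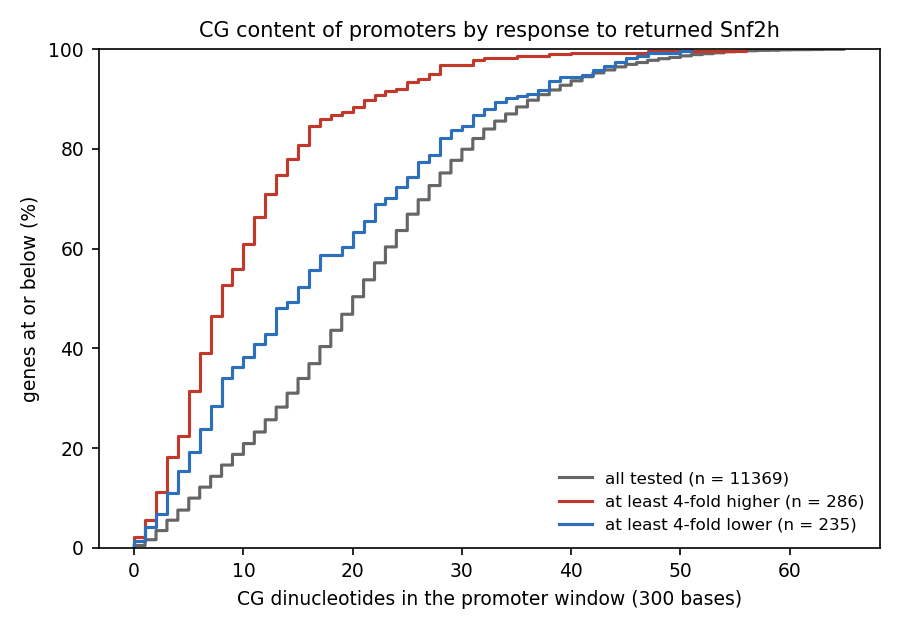
Cumulative share of genes (vertical, percent) by the number of CG dinucleotides in the 300-base promoter window (horizontal), for all 11369 tested genes with a promoter, the 286 that rose 4-fold or more on add-back and the 235 that fell as far. The curve of the risers lies to the left, with a median of 8 CG against 20 for all genes.

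A core of the CTCF motif was searched on both strands of the same windows. It occurred in 3.30% of the promoters of genes that rose 2-fold or more, 3.10% of those that fell as far and 2.89% of all, so its share differed little. A core of the REST motif, also on both strands, occurred in 1 of 817, 4 of 902 and 9 of 11369 promoters. Neither core was present in the windows of Atxn1l, Tdrd12, Miip and Plac8.

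Among the 20 largest falls, ranked by the same rule as the rises, were several genes of the extracellular matrix. Tnc, which encodes the matrix glycoprotein tenascin C (chromosome 4, 63959785 to 64047015), had 0 counts in all 3 add-back libraries against 15.2, 19.3 and 19.14 CPM in ko. With a floor of 3 counts over the add-back group it was at least 280-fold lower. Lox, a collagen-crosslinking oxidase gene, fell from 5.68, 7.90 and 6.82 CPM to 0, 0.0613 and 0.135 CPM. The proteoglycan gene Bgn fell 26.3-fold, the matrix genes Fbln2 26.1-fold and Ltbp2 16.7-fold, and the collagen genes Col1a2 15.3-fold and Col1a1 9.54-fold.

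The 20 largest falls also included genes of other kinds. Wnt6, a Wnt ligand gene, fell from 23.4, 22.8 and 21.6 CPM to 1.21, 1.35 and 1.35 CPM (log2 change −4.11 ± 0.13). Tnfaip2 fell 16.5-fold, Irak3, an inhibitor of Toll-like receptor signalling, 11.6-fold, the glutamate receptor gene Grm4 10.9-fold, Fbp2, a fructose bisphosphatase gene, 10.4-fold, and Ptgs2, the inducible cyclooxygenase gene, 10.4-fold. Tex13b fell 19.05-fold, Hsf4 9.30-fold, the neural transcription factor gene Sox21 8.89-fold and Islr2 8.88-fold. Peg13 and Mid1 were also among the 20 largest falls and are described with the genes that lay below wild type after add-back.

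In CPM, the largest gains were of abundant genes, some of them with small fold changes. Ncl, the gene of the nucleolar protein nucleolin, gained 1693 CPM (from 4199 ± 45.6 to 5892 ± 28.7, log2 change 0.49 ± 0.04). The glycolytic genes Ldha and Pkm gained 691 and 552 CPM, and Hnrnpu, Enah and Eif4g2 also rose. Hsp90ab1 and Eef1a1 met the threshold at 0.11 each on the log2 scale, but Eef1a1 lost its call without any 1 of the 6 libraries (adjusted p from 0.0511 to 0.162), and Hsp90ab1 lost it without ko replicate 3, 4 or 5 or add-back replicate 1 (0.0632 to 0.0955). Both lost it without TMM scaling. The largest losses in CPM were of Grb10, an imprinted adaptor gene that fell from 864, 893 and 858 to 330, 313 and 344 CPM, and of Ftl1, Ccnd3, Sparc, Slc2a3, Fermt2, Ctsl and Aars, whose log2 changes lay between −1.08 and −0.25. A fit of all 18 libraries widened ko to replicates 1 to 5 and wild type to replicates 1 to 8. In that fit Ftl1 was not called (−0.49, adjusted p = 0.0719).

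**Figure D3:**
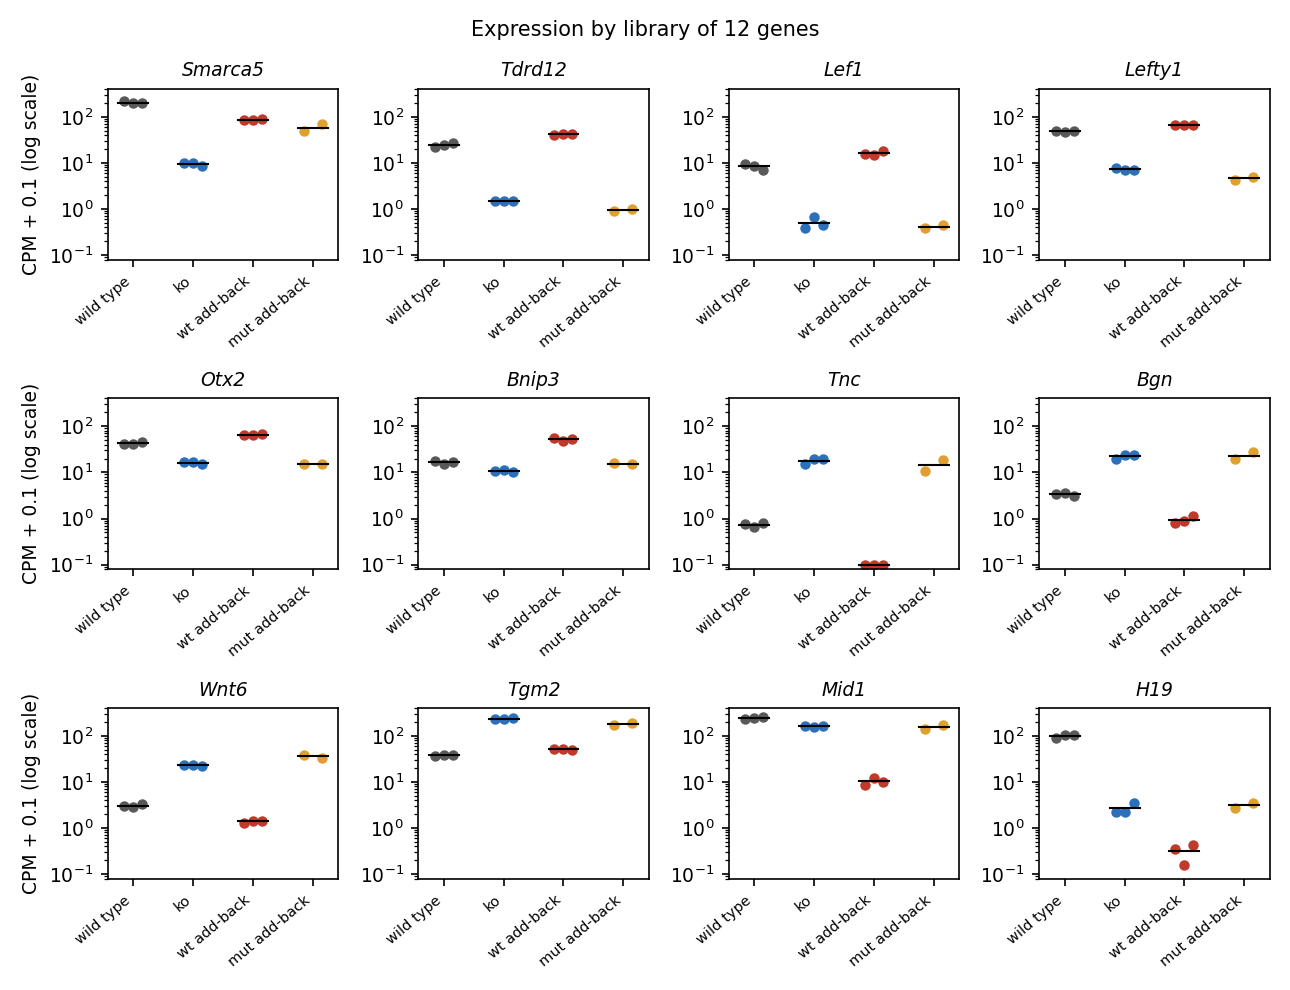
CPM plus 0.1 (vertical, log scale) in each library of 12 genes, by group: wild type (n = 3), ko (n = 3), wild-type add-back (n = 3) and mutant add-back (n = 2), with bars at the group means. Tdrd12, Lef1, Lefty1, Otx2 and Bnip3 are high in the wild-type add-back and low in ko, Tnc, Bgn, Wnt6 and Tgm2 the reverse, and Mid1 and H19 are lower in the wild-type add-back than in any other group.

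To see which processes these genes belong to, 45 lists written from general knowledge were counted against the shares of all tested genes, 33.1% higher and 31.8% lower, and against a median log2 change of 0.01 over all genes. No list was tested as a set. In what follows, levels are mean CPM ± SD over 3 libraries, and values in parentheses or after a gene alone are log2 changes of the wild-type add-back against ko, all called unless stated. The mutant add-back against ko, a comparison that shares the ko libraries, called 12.9% of genes higher and 12.5% lower, and its medians are given beside some lists for reference.

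Among genes of chromatin factors, 10 of 15 ISWI subunit genes were higher and none was lower, a count that includes Smarca5, the gene added back. Beside Smarca5 and Smarca1, Baz1a, which encodes the ACF1 partner of Snf2h, rose from 36.4 ± 1.91 to 61.5 ± 2.24 CPM (0.76 on the log2 scale). Hmgxb4 and Cecr2, a partner of ISWI ATPases, rose by 0.60 and 0.72. Of 21 other remodelling ATPase genes 15 were higher and 2 lower, with Chd3 at 0.86, Ercc6 at 0.62, Hells at 0.51 and Chd4 at 0.45. SWI/SNF subunit genes were 11 higher and 5 lower of 24, with Arid2 (0.73), Arid1a (0.61) and Smarcc1 (0.55) up and Smarcd3 (−0.68) down. In a fit of all 18 libraries Smarcd3 was not called (−0.43, adjusted p = 0.0609). Of 16 CTCF and cohesin genes 12 were higher and 2 lower, with the germline cohesin subunit gene Stag3 at 108 ± 4.06 against 48.7 ± 1.65 CPM (1.14). Wapl and Stag1 rose by 0.41 and 0.35.

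DNA methylation genes were called in 9 of 15 cases, 7 of them higher. Mbd1, a methyl-CpG binding protein gene, rose from 9.15 ± 0.53 to 37.6 ± 1.93 CPM (2.04), and Dnmt3l, the cofactor of the de novo methyltransferases, from 94.6 ± 2.76 to 253 ± 11 CPM (1.42). The methyltransferase genes Dnmt3a and Dnmt3b rose by 0.65 and 0.54. Dnmt3a stayed at 137 ± 4.83 CPM, 1.00 below the 274 CPM of wild type on the log2 scale (adjusted p = 1.39e-11), a difference not called when all 18 libraries were fitted (−0.53, adjusted p = 0.292). Polycomb genes moved both ways, 7 higher and 12 lower of 24. Bcor, a corepressor of a variant Polycomb complex, rose from 27.0 ± 0.74 to 85.6 ± 8.07 CPM (1.67).

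Pluripotency genes were reordered. Of 26 naive and core genes, 15 were higher and 10 lower. Klf2 rose from 62.9 ± 3.98 to 188 ± 12.1 CPM (1.58) and Fbxo15 from 62.9 ± 1.84 to 118 ± 0.44 CPM (0.90), while Tbx3 fell from 203 ± 3.13 to 77.7 ± 2.94 CPM (−1.38) and Klf4 from 371 ± 3.34 to 214 ± 3.65 CPM (−0.79). Of 18 genes of the formative and primed state, which follows the naive state in the embryo, 12 were higher and 3 lower (median 0.56, against −0.02 for the mutant add-back). Otx2 rose from 16.2 ± 0.72 to 65.2 ± 2.07 CPM (2.01), Grhl2, an epithelial regulator, from 11.2 ± 0.15 to 62.6 ± 6.10 CPM (2.48), Zic2 from 0.994 ± 0.161 to 11.4 ± 0.916 CPM (3.50) and Pou3f1 from 6.82 ± 0.67 to 19.8 ± 1.33 CPM (1.54).

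Signalling genes changed in both directions within a pathway, as did all tested genes (33.1% higher and 31.8% lower). For Nodal, the pathway's own inhibitors and targets Lefty1 and Lefty2 rose, Lefty1 from 7.10 ± 0.43 to 65.3 ± 0.58 CPM (3.20) and Lefty2 from 23.2 ± 0.56 to 59.2 ± 2.16 CPM (1.35). The BMP ligand gene Bmp7 fell from 18.5 ± 0.87 to 4.98 ± 0.45 CPM (−1.89) and Id2, a BMP target, rose by 1.04, and over the 34 genes 8 were higher and 12 lower. For Wnt, 5 of 28 ligand, receptor and Tcf/Lef genes were higher, 11 lower and 12 not called (median −0.12, against −0.13 for the mutant add-back). The ligand genes Wnt6, Wnt10a (−4.14) and Wnt3a (−2.67) fell and the receptor gene Fzd7 rose from 87.9 ± 1.72 to 203 ± 7.74 CPM (1.21). Of 16 Wnt targets and inhibitors 11 were lower and 3 higher (median −1.06). Axin2, a common target, fell from 18.6 ± 2.27 to 8.70 ± 0.51 CPM (−1.10), and the secreted inhibitor genes Sfrp2, Dkk1 and Sfrp1 fell, Sfrp2 from 36.5 ± 0.86 to 8.11 ± 0.26 CPM and the others by 2.27 and 1.05 on the log2 scale.

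FGF genes were balanced, 9 higher and 10 lower of 22, with Fgf4 up by 0.47, Fgf17 by 0.72 and Fgfr4, a receptor gene, down from 12.4 ± 0.81 to 4.44 ± 0.47 CPM (−1.48). LIF signalling genes were 4 higher and 6 lower of 15. The kinase gene Jak1 fell from 145 ± 2.02 to 79.7 ± 1.70 CPM (−0.86) and the feedback inhibitor gene Socs2 rose from 59.9 ± 1.49 to 97.1 ± 3.10 CPM (0.70).

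Lineage lists differed, and falls were most one-sided among neuroectoderm, Hox and mesoderm genes. Of 11 neuroectoderm genes tested 10 were lower and 1 higher (median −1.96), Sox21 falling from 37 ± 1.03 to 4.16 ± 0.33 CPM and Sox1 from 12.5 ± 0.89 to 2.34 ± 0.21 CPM (−2.41). Sox11 was the member that rose (0.78). Of the 39 Hox genes, 13 passed the filter, of which 7 were lower and none higher. Hoxb9 fell to 0.620 ± 0.199 CPM from 3.36 ± 0.36 (−2.43). Mesoderm genes were 8 lower and 2 higher of 14, at low levels, with the notochord and streak gene T at 0.188 ± 0.120 against 0.778 ± 0.110 CPM. Trophectoderm genes split, 5 higher and 8 lower of 18, with Gata2 down (−1.58), Cdh3 down (−1.26) and Tfap2c up (1.16).

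Endoderm genes were 7 higher and 7 lower of 18. Dab2 fell from 86.1 ± 4.95 to 35.9 ± 2.04 CPM (−1.26) and Amn from 15.6 ± 0.50 to 3.90 ± 1.04 CPM (−1.99), while the laminin genes Lamb1 and Lama1 were 0.42 and 0.50 higher. In a fit of all 18 libraries the 2 laminin genes turned to −0.80 and −0.73 and were not called. In the mutant add-back 16 of the 18 endoderm genes were above ko.

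Germline genes rose, and the piRNA list had the highest median of all lists. Of 23 piRNA-pathway genes 17 were higher and 1 was lower, and the median log2 change was 1.57, against −0.03 for the mutant add-back. This pathway makes small RNAs that silence transposons in germ cells. Rnf17 rose from 17.7 ± 1.02 to 147 ± 7.97 CPM (3.05), Mov10l1, the helicase that loads piRNA precursors, from 4.88 ± 0.89 to 27.1 ± 0.70 CPM (2.47), Gpat2 from 0.776 ± 0.219 to 11.6 ± 1.02 CPM (3.89) and Gtsf1l from 18.3 ± 0.61 to 54.2 ± 1.63 CPM (1.57). The summed level of the list was 551 to 583 CPM in the add-back, 266 to 273 CPM in ko, 587 to 598 CPM in wild type and 282 to 283 CPM in the mutant add-back, with no overlap between add-back and ko. Meiosis and germ cell genes were 22 higher and 8 lower of 37. Tex19.1 rose from 12 ± 0.44 to 77.8 ± 1.81 CPM (2.69), Sohlh2 from 1.54 ± 0.22 to 15.1 ± 1.04 CPM (3.29) and Syce1, a synaptonemal complex gene, from 7.89 ± 0.59 to 37.1 ± 1.48 CPM (2.23), whereas Zcwpw1 fell from 128 ± 1.22 to 56.0 ± 1.86 CPM (−1.19).

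Lists of growth and metabolism genes differed in how many members were called. Of 28 RNA polymerase I and nucleolar genes 25 were higher and none lower (median 0.40), including the polymerase subunit gene Polr1b at 222 ± 6.89 against 131 ± 0.96 CPM (0.76), Rrp1b (0.83), Nolc1 (0.60) and Gnl3 (0.59). Replication licensing genes were 14 higher and 4 lower of 27, with Mcm10 at 0.61 and Orc5 at 0.60. Mitosis genes were 3 higher and 7 lower of 23, with Aurkb at −0.45 and Prc1 at −0.43. In G1 control, 7 were higher and 11 lower of 21. Ccnd1 rose from 113 ± 2.64 to 240 ± 7.22 CPM (1.09) and Cdk6 from 30.6 ± 1.59 to 68.5 ± 3.13 CPM (1.16), while Ccnd3 fell from 639 ± 12.8 to 326 ± 3.51 CPM (−0.97). Of 86 cytoplasmic ribosomal protein genes 15 were higher and 1 lower (median 0.05, which turned to −0.01 without TMM scaling), the largest rise being of Rps4l, a paralog whose reads may be shared with near-identical copies.

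Glycolysis and hypoxia genes were 21 higher and 7 lower of 32. Bnip3, a hypoxia-induced mitophagy gene, rose from 10.8 ± 0.54 to 52.3 ± 3.33 CPM (2.27), Egln3 from 17.4 ± 0.85 to 85.3 ± 7.70 CPM (2.30), Pdk1, which limits pyruvate entry into mitochondria, from 137 ± 5.65 to 308 ± 15.9 CPM (1.16) and Ldha from 704 ± 15.8 to 1395 ± 36.9 CPM (0.99). Bnip3 was not called when all 18 libraries were fitted (1.00, adjusted p = 0.275). Vegfa, a hypoxia target as well, fell from 158 ± 2.46 to 76.6 ± 1.90 CPM (−1.05). Nuclear genes of oxidative phosphorylation were 37 lower and 1 higher of 75 (median −0.16), with Sdhc at −0.37 and Cox6a1 at −0.49. Cholesterol synthesis genes were 19 lower and 1 higher of 25, Pmvk falling from 93.1 ± 3.79 to 50.3 ± 1.48 CPM (−0.89) and Msmo1 from 188 ± 1.80 to 106 ± 4.93 CPM (−0.82).

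Stress-response genes mostly fell. Of 28 genes of the unfolded protein and integrated stress responses 21 were lower and 2 higher, with the regulator gene Atf4 at 230 ± 11.3 against 387 ± 7.35 CPM (−0.75), its target Asns at −0.66 and Nupr1 at −1.32. Of 30 p53-pathway genes 17 were lower and 5 higher, with the pro-apoptotic gene Pmaip1 at 64.7 ± 1.30 against 155 ± 5.00 CPM (−1.26), Plk2 at −1.04 and Btg2 at −1.03. Ccnd1, also on that list, rose. Immediate early genes split, 8 higher and 10 lower of 22, with Myc up from 53.2 ± 3.01 to 100 ± 0.29 CPM (0.91) and Fos down from 18.1 ± 0.74 to 4.51 ± 0.46 CPM. Interferon-response genes also split, 13 higher and 9 lower of 26, with Ifitm1 up (1.17), Ddx58 up (0.91), Xaf1 down (−1.54) and Tap1 down (−1.56).

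Genes bound by the neuronal repressor REST in other cells were 13 lower and 6 higher of 26. Rundc3a fell from 54.3 ± 1.14 to 14.2 ± 0.44 CPM (−1.93) and Sez6 from 9.14 ± 0.60 to 1.69 ± 0.21 CPM (−2.43), while Syt4 rose from 0.646 ± 0.134 to 4.11 ± 0.39 CPM (2.65). Clustered protocadherin genes, whose promoters bind CTCF, were 24 lower and none higher of 36. All 22 genes of the gamma cluster that were tested were lower, by −0.51 to −0.25, but their levels were alike (62.9 to 70.1 CPM after add-back). These genes share constant exons, so they are closer to 1 measurement than to 22. With all 18 libraries in the fit, the call of the first of them, Pcdhgc3, was lost (−0.34, adjusted p = 0.0621).

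Most matrix and collagen genes fell. Of 36 matrix glycoprotein and matrix enzyme genes 27 were lower and 6 higher, with the crosslinking enzyme gene Tgm2 at 50.8 ± 0.70 against 235 ± 3.47 CPM (−2.21) and Mmp14, a membrane metalloproteinase gene, at 65.3 ± 3.34 against 197 ± 2.97 CPM (−1.60). Of 19 collagen genes 14 were lower and 3 higher (median −1.55), Col5a1 falling from 40.2 ± 0.31 to 13.7 ± 0.97 CPM and Col5a2 from 7.66 ± 0.95 to 0.981 ± 0.028 CPM (−2.96). Col18a1, a basement membrane collagen gene, rose from 289 ± 4.12 to 426 ± 27.1 CPM (0.56). Among adhesion genes the epithelial regulator genes Grhl2 and Esrp1 (1.64) rose, while the mesenchymal genes Vim (−1.09) and Zeb1 (−1.57) fell, and 17 of 31 were lower and 9 higher. Contractile genes split near the shares of all genes, 6 higher and 9 lower of 24 (median −0.04, which turned to 0.01 without add-back replicate 2), with Acta2, Des and Cald1 among those that fell (by 2.07, 1.18 and 1.04). YAP and TEAD targets were 14 lower and 7 higher of 24, with Nuak2 down (−1.02) and Ctgf, F3 and Crim1 up by 0.61, 1.10 and 1.12. The last 3 turned to −0.71, −0.57 and −0.28, not called, when all 18 libraries were fitted.

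Because ko cells had spent time on MEF feeders, fibroblast markers were read beside these genes. Of 22 markers tested (30 listed) 15 were lower and 2 higher in the add-back, with a median of −1.40. Col1a1 had 307, 374 and 324 counts in ko, 31, 33 and 27 in the add-back, 42, 61 and 65 in wild type and 171 and 155 in the mutant add-back, which shared the feeder history of ko. Col3a1 had 26, 27 and 13 counts in ko against 0, 2 and 0, a ratio of 28.6 (exact 95% interval 7.61 to 241, counting error only), and Postn 9, 20 and 12 counts against 0, at least 11.9-fold lower with a floor of 3 counts over the group. The fibroblast-defining genes Dcn and Lum were at or near 0 in each of these libraries, with at most 1 count per library in ko and in the add-back. Pdgfrb was at 2.83 to 3.05 CPM in ko and 2.45 to 3.30 CPM in the add-back (−0.05, adjusted p = 0.797), and Thy1 fell by 0.58 (−0.54 and not called, adjusted p = 0.0566, when all 18 libraries were fitted). The summed level of the tested markers was 1372 to 1654 CPM in the add-back, 1318 to 1364 CPM in ko, 1100 to 1145 CPM in wild type and 1004 to 1239 CPM in the mutant add-back. Abundant members dominate this sum, so it does not follow the 15 markers that fell, and no marker rose by more than 0.51 on the log2 scale. Past feeder contact and the absence of Snf2h cannot be told apart by these libraries, for the matrix genes or for other genes. In bulk RNA, fewer cells of a type and less RNA per cell cannot be told apart either.

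**Figure D4:**
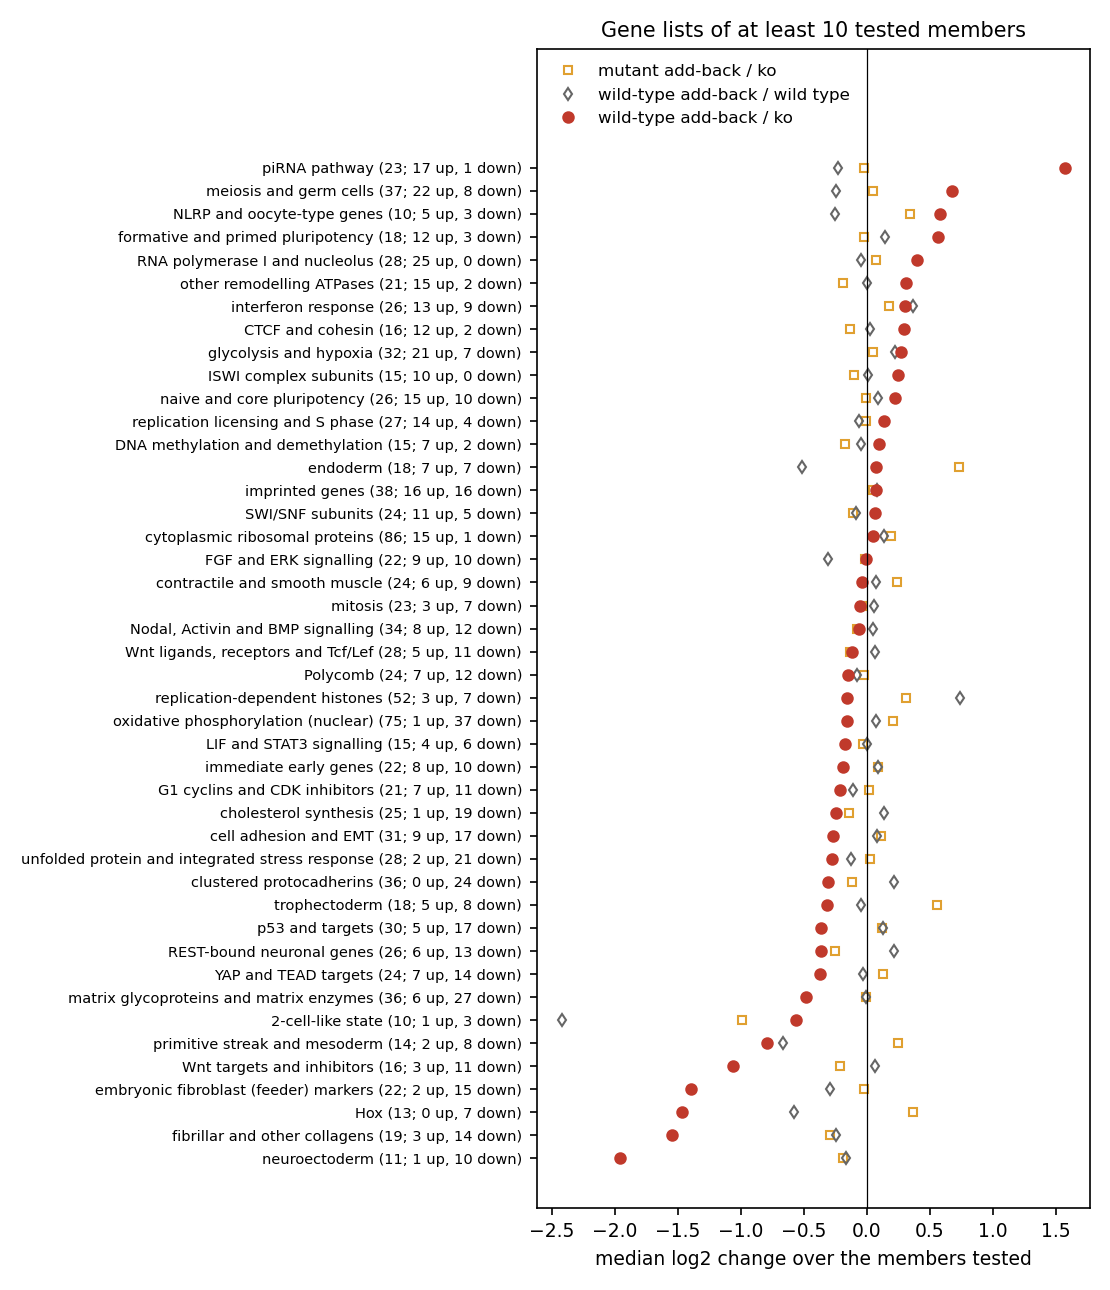
Median log2 change over the tested members of each list of at least 10 (horizontal), of the wild-type add-back compared with ko (red circles) or with wild type (grey diamonds) and of the mutant add-back compared with ko (orange squares), with the number tested and called higher or lower in the add-back beside each name. The red circles run from 1.57 for piRNA genes to −1.96 for neuroectoderm genes.

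How far expression moved was measured on genes chosen in other libraries. Ko replicates 1 and 2 were compared with wild-type replicates 1 and 2 (75.2% of 14742 genes called), and neither these nor any pooled estimate entered the add-back comparison. Of 1215 genes at least 2-fold lower in those ko libraries, 1016 (83.6%) were higher in the add-back than in ko replicates 3 to 5 and 24 were lower, against 33.1% and 31.8% of all genes. Their median log2 change was −1.68 in the choosing libraries, 1.27 on add-back, and 0.01 for the add-back relative to wild-type replicates 6 to 8. For the 461 genes at least 4-fold lower, 416 (90.2%) rose and 9 fell.

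Genes that had been higher in ko were called lower on add-back in a smaller share. Of 1592 genes at least 2-fold higher in the choosing libraries, 1218 (76.5%) fell on add-back and 87 rose. Their median was 1.57 in the choosing libraries but 0.90 for ko replicates 3 to 5 against wild-type replicates 6 to 8, and it was −0.99 on add-back and −0.10 relative to wild type. Of the 465 at least 4-fold higher, 346 (74.4%) fell and 29 rose, with a median of −1.49 on add-back and of −0.28 against wild type. In 14320 genes tested in both fits, the change on loss and the change on return had a Pearson correlation of −0.76 across genes, which are not independent replicates. Ko cells stand on opposite sides of the 2 comparisons. Loss or return of Snf2h and the feeder history of the ko line therefore cannot be told apart here either.

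**Figure D5:**
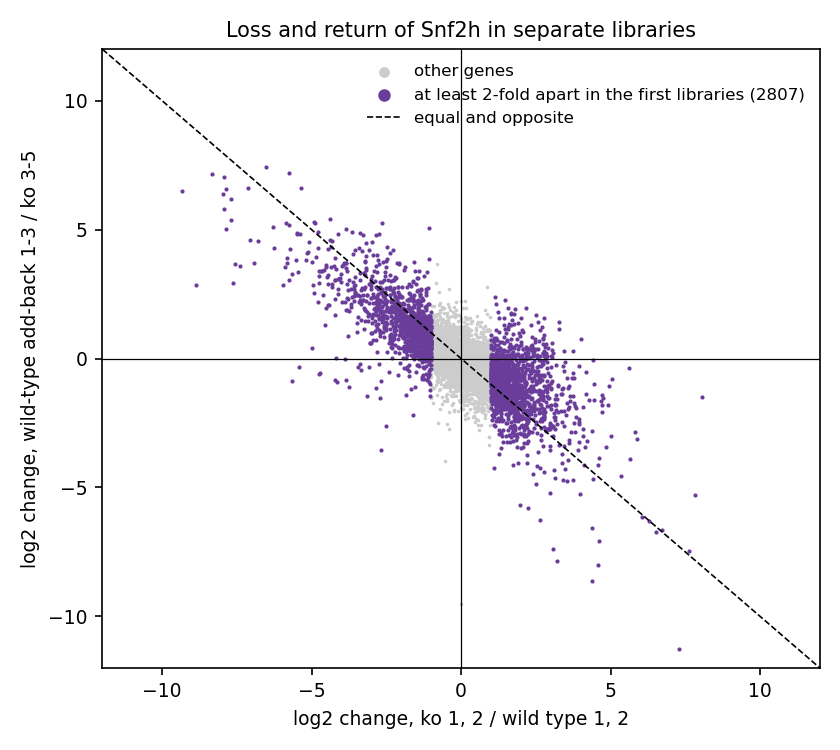
Log2 change of ko replicates 1 and 2 against wild-type replicates 1 and 2 (horizontal) and of the wild-type add-back against ko replicates 3 to 5 (vertical) for each gene tested in both, with genes called and at least 2-fold apart in the first comparison in purple. No library is shared between the axes. Of the purple genes, 1016 of 1215 on the left were called higher on add-back and 1218 of 1592 on the right were called lower, and the dashed line marks equal and opposite change.

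The mutant add-back is compared here with the same ko and wild-type add-back libraries. In it, medians of the same chosen genes moved away from wild type, by less than they moved on wild-type add-back. The 1215 genes lower in ko had a median of −0.18 for the mutant add-back against ko, and the 1592 genes higher in ko a median of 0.18. For the genes at least 4-fold lower or higher in ko, these medians were −0.30 and 0.42. Of the 1215 genes, 1043 were higher in the wild-type than in the mutant add-back while 10 were lower, where 33.4% and 33.8% of all genes were. Of the 1592 genes higher in ko, 1370 were lower in the wild-type than in the mutant add-back and 21 were higher. Over all genes the 2 add-backs differed in 9744 calls (67.3%), of which 1174 and 1360 were at least 2-fold. Smarca5 itself was 1.47-fold higher in the wild-type add-back, so the 2 lines differed in Smarca5 RNA as well as in the mutation. They also differed in listed feeder history, since the growth protocol names MEF feeders for the mutant add-back and not for the wild-type add-back. These differences cannot be told apart by these libraries. The mutant add-back libraries also differed from each other more than other replicates did (chi-square per gene 13.96).

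Against wild type, the add-back differed in 4786 genes (33% of those tested; 16% higher and 17% lower), of which 254 were higher and 304 lower by 2-fold or more. This count fell to 238 in a fit of all 18 libraries. There the wild-type mean includes the deeper libraries, and the spread between wild-type libraries of different depth enters the error. Some genes were above wild type. Trpm1, a cation channel gene, was at 6.42, 7.54 and 5.18 CPM against 0.801 CPM in wild type (2.98 on the log2 scale), Bhlhe41, a transcriptional repressor of the clock, at 6.55, 5.70 and 5.38 against 0.875 CPM (2.73), and Ankrd1, a YAP target, at 24.0, 25.5 and 23.5 against 6.34 CPM (1.94). Lrrc31 and Cdhr1 were 2.22 and 2.15 above wild type. The hypoxia genes Bnip3 and Egln3 also exceeded wild type, by 1.65 and 1.48. When all 18 libraries were fitted, none of these 7 genes was called against wild type, with Bnip3 at −0.57 (adjusted p = 0.735) and the others between 0.05 and 1.23 (adjusted p from 0.165 to 0.970).

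Other genes were below wild type after add-back. H19 and Mid1, already lower in ko, fell further, whereas Peg13 fell from a ko level near that of wild type. H19, an imprinted noncoding RNA gene, averaged 98.9 CPM in wild type and 2.57 CPM in ko. It was at 0.254, 0.0613 and 0.336 CPM in the wild-type add-back, lower than ko (−3.54 ± 0.39, adjusted p = 3.66e-07) and −8.81 from wild type. Peg13, also imprinted, had 0 counts in all add-back libraries against 5.17, 4.63 and 6.19 CPM in ko, at least 83.0-fold lower, and was at 5.05 CPM in wild type and 4.97 and 5.15 CPM in the mutant add-back. Mid1, an X-linked ubiquitin ligase gene, was at 8.39, 12.2 and 9.82 CPM against 164, 153 and 164 CPM in ko, 240 CPM in wild type and 141 and 174 CPM in the mutant add-back. Over 38 imprinted genes 16 were higher and 16 lower than ko, with Snrpn up from 81.0 ± 0.63 to 166 ± 1.90 CPM (1.03) and Igf2, the neighbour of H19, down from 25.8 ± 0.34 to 14.0 ± 0.97 CPM (−0.88).

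The Y-linked genes Ddx3y, Uty and Eif2s3y were nearly absent from every ko and add-back library. Ddx3y had 830 to 915 counts per wild-type library, 4 to 8 in ko, 3 to 12 in the wild-type add-back and 4 and 7 in the mutant add-back. Uty had 424 to 511 counts per wild-type library and at most 10 in any other. Eif2s3y had 1100 to 1271 counts in wild type and 5 to 24 elsewhere. The Zscan4 genes of the 2-cell-like state, near-identical copies among which reads may be shared, also stayed low, with Zscan4c at 8.43 CPM in wild type, 1.98 ± 0.22 in ko and 1.05 ± 0.03 in the add-back, 8.01-fold below wild type. Of 10 genes of that list tested, 9 were below wild type. Dab2, at 238 CPM in wild type, was 2.73 below it on the log2 scale (1.84 below and not called, adjusted p = 0.0892, when all 18 libraries were fitted), and 14 of 18 endoderm genes were lower than in wild type.

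Chromosomes 8 and X departed from the others, and the Y chromosome did so on few genes. The Y chromosome, with 9 genes tested of which 1 was higher and 4 lower, had a median of −1.80 for the add-back against ko and of 1.87 for the mutant add-back against ko. These medians rest partly on values near the floor. The 4 tested genes of the Y-linked list summed to 1.25 CPM in the add-back and 1.62 CPM in ko. Median log2 changes of the add-back against ko lay between −0.05 and 0.09 on each autosome but chromosome 8. On chromosome 8, which carries Smarca5 and Atxn1l, the median was −0.11, with 42.0% of 754 genes lower and 22.8% higher, and it was −0.07 for the mutant add-back against ko and −0.03 for the add-back against wild type. On the X chromosome 45.5% of 519 genes were higher and 20.8% lower, with a median of 0.18, against −0.02 for the mutant add-back and 0.04 for the add-back against wild type.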

How the data were processed

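Polyadenylated RNA was sequenced from TruSeq stranded libraries. The deposited table holds raw read counts per gene for 18 libraries, which the authors made with bcl2fastq 2.17 and STAR on mm10 (GRCm38), per the submitters' processing notes. The counter, its strand setting and the annotation are not stated in any source used here, so values of overlapping or near-identical genes are uncertain. Genes are matched by Entrez identifier to RefSeq positions (14472 of 14488 tested).

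The 11 libraries under 20 M counts (wild-type add-back 3, ko 3, wild type 3, mutant add-back 2) were fitted together in edgeR 4.0.16 (R 4.3.3): filterByExpr with a minimum of 10 counts, TMM scaling, a robust quasi-likelihood fit and Benjamini-Hochberg adjustment over all tested genes, with calls at an adjusted p under 0.05. Pooling 4 groups gives the error more degrees of freedom. The common biological coefficient of variation was 0.0523. Ko and wild-type replicates 1 and 2 were fitted separately. Errors are SDs over libraries or SEs of fitted log2 changes. Where a group had 0 counts, folds are bounds at 3 counts over the group. Intervals cover counting error only. The fit was also run on simulated counts in which few genes were changed. That setting differs from these data, so it does not test the scaling or the rate of false calls here.

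Named genes are Smarca5, Smarca1, the 20 largest rises and falls (a group mean of 5 CPM or more on the higher side, no overlap, no predicted or clone names), the 8 largest gains and losses in CPM, up to 5 members per list by adjusted p, the extremes against wild type, and 8 fibroblast markers. A few genes that the rule picked are not reported here. The groups, members and lists were chosen with earlier results of these data known. Alternatives were other scalings, filters, tests, sets of libraries and each library left out (limma 3.58.1 was loaded with edgeR, DESeq2 1.42.0 was an alternative).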

Additional observations from a re-analysis of the deposited data

How the results depend on the processing

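Over leave-one-out fits, genes called between the wild-type add-back and ko ranged from 8652 (without ko replicate 5) to 8914 (without add-back replicate 2), with 4265 to 4567 higher and 4263 to 4428 lower. The range was 9008 to 9771 against the mutant add-back, 3612 to 4299 against wild type and 10085 to 10658 for ko replicates 1 and 2 against wild type, where a lone library is assumed to vary like the others. Of the genes chosen there, 979 to 990 lower in ko rose and 1166 to 1183 higher in ko fell. Tested against a change of 1.5-fold, 2709 genes were called against ko (1233 higher, 1476 lower), 3011 against the mutant add-back and 409 against wild type. With all 18 libraries, which differ in depth and widen the ko and wild-type groups, the counts were 6702, 5507 and 238. With a filter of at least 5 CPM, 439 chosen genes rose and 631 fell, because fewer genes were tested. In the fit of all 18 libraries, log2 changes against ko turned to −0.80 for Lamb1, −0.73 for Lama1, −0.71 for Ctgf, −0.57 for F3, −0.28 for Crim1 and −0.23 for Bhlhe41, and Bnip3 against wild type turned to −0.57. None of these was called there, and the cause was not tested. List medians that changed sign with all 18 libraries were those of endoderm (−0.90), 2-cell-like (0.01), FGF (0.09), LIF (0.01) and histone genes (0.03). With at least 5 CPM they were 2-cell-like (0.34), mesoderm (0.41), immediate early (0.10), imprinted (−0.19) and NLRP genes (−0.47). Without TMM scaling the medians of ribosomal and SWI/SNF genes came to −0.01 and −0.00019.

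No paired analysis was possible because the wild-type add-back (replicates 1 to 3) and ko (replicates 3 to 5) share only the number 3. Between the 2 add-backs, replicates 1 and 3 with the replicate block gave 9119 calls, and the same 4 libraries without it, a setting chosen after seeing the data, gave 7620. Same-numbered libraries there had deviations correlated at 0.31 across genes. For ko against wild type, replicates 1 and 2, the replicate block gave 11445 calls against 11083 without it, with a correlation of 0.07.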

Other observations

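Replication-dependent histone genes, whose messages normally end without a polyadenylated tail, were measured at low levels in these polyadenylated RNA libraries. Of 52 tested, 3 were higher and 7 lower in the wild-type add-back than in ko, and 19 were higher and none lower in the add-back than in wild type. Their summed level was 32.2 to 37.4 CPM in wild type, 52.9 to 65.6 CPM in the wild-type add-back, 69.5 to 74.5 CPM in ko and 82.1 to 101 CPM in the mutant add-back, so the wild-type libraries lay below all others. Hist3h2a was at 4.69 ± 0.61 CPM in ko, 2.07 ± 0.47 CPM in the add-back (SD, n = 3 each) and 0.956 CPM in wild type. The origin of these reads was not tested.

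Of 10 NLRP and oocyte-type genes tested, 5 were higher and 3 lower in the add-back than in ko. Nlrp4f rose from 0.506 ± 0.223 to 5.98 ± 0.35 CPM (SD, n = 3 each). Among the members that fell, Khdc3, of the oocyte's subcortical maternal complex, was at 53.3 ± 3.18 against 73.7 ± 3.14 CPM, and Tle6, of the same complex, at 9.10 ± 0.04 against 12.5 ± 0.06 CPM. In a fit of all 18 libraries Hist3h2a and Khdc3 were not called between add-back and ko (adjusted p = 0.101 and 0.0565 by edgeR's quasi-likelihood test).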
